A study of Mus musculus with 12 samples.

Results

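The 10 genes described here encode the subunits of the transcription factor NF-kB (Nfkb1, Nfkb2, Rel, Rela and Relb), the IkB proteins and relatives that bind them (Nfkbia, Nfkbib, Nfkbie and Nfkbiz) and the enzyme Tnfaip3 (A20). They were taken by symbol from the 41091 genes of the count tables, 5 of them subunits and 5 of them IkB genes or Tnfaip3. The set was chosen in part by measured values of these libraries, the higher level of Nfkb1 in potentiated than in control slices at 3 hr. Total RNA of acute mouse hippocampal mini-slices, with the dentate gyrus trimmed away, was measured by RNA-seq to follow gene expression after chemical long-term potentiation (cLTP, here LTP). All mice were wild-type C57BL/6 males aged 2 to 3 months. After a recovery period LTP slices were perfused over 10 min with forskolin (50 uM), which activates adenylyl cyclase, joined over the last 5 min by KCl at 30 mM and Ca2+ at 10 mM, and control slices received 0.2% DMSO over that time. Slices were frozen 1 hr or 3 hr afterwards, which gave 4 groups of 3 libraries, a control and an LTP group at each time. Each library came from several slices of 1 animal, the same animal supplied the LTP and the control library of a replicate number within a time point, and libraries were made only from inductions that had raised Arc and the short form of Homer1 by qPCR. Unsliced tissue is not analysed here, so 1 hr is the earliest time measured.

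NF-kB is a family of dimeric transcription factors held inactive in the cytoplasm by IkB proteins. Cytokine receptors and Toll-like receptors activate IkB kinases, which mark IkB for degradation and so release the dimers into the nucleus. Several genes of the pathway, among them Nfkbia and Tnfaip3, are themselves textbook targets that feed back on it, and in brain the pathway is known in microglia, astrocytes and endothelium as well as in neurons.

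Promoter sequences were read for the members because known feedback targets carry kappa B elements near their start sites. Windows of 300 bases (250 before to 50 after a start, RefSeq, GRCm38.p6) were at hand for 7 of the 10 genes. Both strands were searched for the kappa B consensus (3 G, 1 purine, 2 free bases, 2 pyrimidines and 2 C) and for TGACGT, the core of cyclic AMP response elements. The kappa B consensus was present in 8.46% of all 32851 windows and in 7 of the 10 windows of the members, some of which overlap. These windows belonged to 5 of the 7 genes, Nfkb2, Rel, Nfkbia, Nfkbie and Tnfaip3, but not in those of Rela and Nfkbib. TGACGT was present in 7.51% of all windows and in those of Rel and Tnfaip3, where it did not overlap a kappa B match. One match of each of the 5 genes is shown on the strand that carries it, with the consensus in capitals and 10 bases on either side.
Nfkb2, chr19:46304698-46304707, plus strand: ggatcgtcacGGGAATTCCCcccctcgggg
Rel, chr11:23771052-23771061, plus strand: gggaggggggGGGATTTCCCgctgcttacg
Nfkbia, chr12:55492667-55492676, plus strand: gtcaggcgcgGGGAATTTCCaagccagtca
Nfkbie, chr17:45555594-45555603, plus strand: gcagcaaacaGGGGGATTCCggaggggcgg
Tnfaip3, chr10:19015413-19015422, plus strand: ttgccaacagGGGGATTTCCgatggaaatt
The matches of Rel, Nfkbia and Nfkbie lay before the gene as annotated in GENCODE M21, that of Nfkb2 lay in an annotated exon and that of Tnfaip3 in an annotated intron, each within a window of a RefSeq start. Nfkb2 had 4 separate match positions over its 3 windows and Tnfaip3 had 2. These letter matches describe the windows only and are not evidence of binding.

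The shallowest library held 37118382 counts and the deepest 50815001, so that 3 counts, taken as the floor, were worth 0.059 to 0.0808 CPM (counts scaled to the library total, with levels given further on also TMM-scaled between libraries). No member had fewer than 179 counts in any library, so all 10 passed the filter on low counts in every comparison. The study set 1 hr control replicate 2 aside as an outlier of its clustering. It was left out of the fits here, its values are given, and results with it are given where they differ most. Any fit that also leaves out another 1 hr control has a single library in that group, which is assumed to vary like the other groups. Markers of excitatory neurons were high (summed 2655 to 4129 CPM), and 4 markers of dentate granule cells still summed to between 119.5 and 222.04 CPM. In such bulk samples, fewer cells of a type and less RNA per cell cannot be told apart. The labels reuse the animal numbers at both times and do not say whether the animals are the same. The animals of the time points were taken to be different ones, so differences over time were tested against the spread between animals. Time then cannot be told apart from the animals of each time point, and every difference over time given here may hold both.

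A gene was called when its adjusted p (edgeR quasi-likelihood F test, Benjamini-Hochberg over all genes tested) was under 0.1 and its fold change over 1.2. Between 1 hr and 3 hr in control slices, 7 of the 10 members, Nfkb1 included, rose and 0 fell. Of all 18584 genes tested, 16.1% were called higher and 16.8% lower. The 3 hr control values of Nfkb1 entered the choice of the set, so nothing is read from its own rise. Those that rose were the subunits Nfkb1, Nfkb2 and Relb and, on the inhibitory side, Nfkbia, Nfkbib, Nfkbie and Tnfaip3. In LTP slices, 7 of the 9 members other than Nfkb1 were higher at 3 hr than at 1 hr and 0 lower (18.6% of all genes were called higher and 17.3% lower), with Rel and Rela called there and Nfkbib not. Nfkb1 was higher as well, but its 3 hr LTP level chose the set and nothing is read from it. At 1 hr after LTP, 1 member, Nfkbiz, was higher than in control slices and 0 were lower, where 0.778% of all genes were called higher and 0.0113% lower. At 3 hr after LTP, 4 members were called higher (Nfkb1, Nfkbie, Nfkbiz and Tnfaip3), and 0 lower, beside 5.07% and 1.53% of all genes. That contrast chose the set, so its member values are a description, given without p, and nothing is read from the count. The fitted libraries of the groups did not overlap, with the later group higher, for 9 members between the control times (32.5% of all genes) and 7 between the LTP times (24.0%), Nfkb1 included in each. With the LTP group higher, the count was 3 for LTP at 1 hr (10.3%) and 4 for LTP at 3 hr (12.4%).

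The median log2 fold change of the 10 members, Nfkb1 included, was 0.58 for 3 hr against 1 hr control, beside a median of -0.019 over all genes tested. For LTP against control it was 0.069 at 1 hr and 0.25 at 3 hr, beside medians of -0.0010 and -0.0025 over all genes, the value at 3 hr being a description. The contrasts share libraries (the 3 hr controls serve both as the baseline of LTP at 3 hr and as the later time of the controls), so they are given side by side and are not independent of each other.

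**Figure D1:**
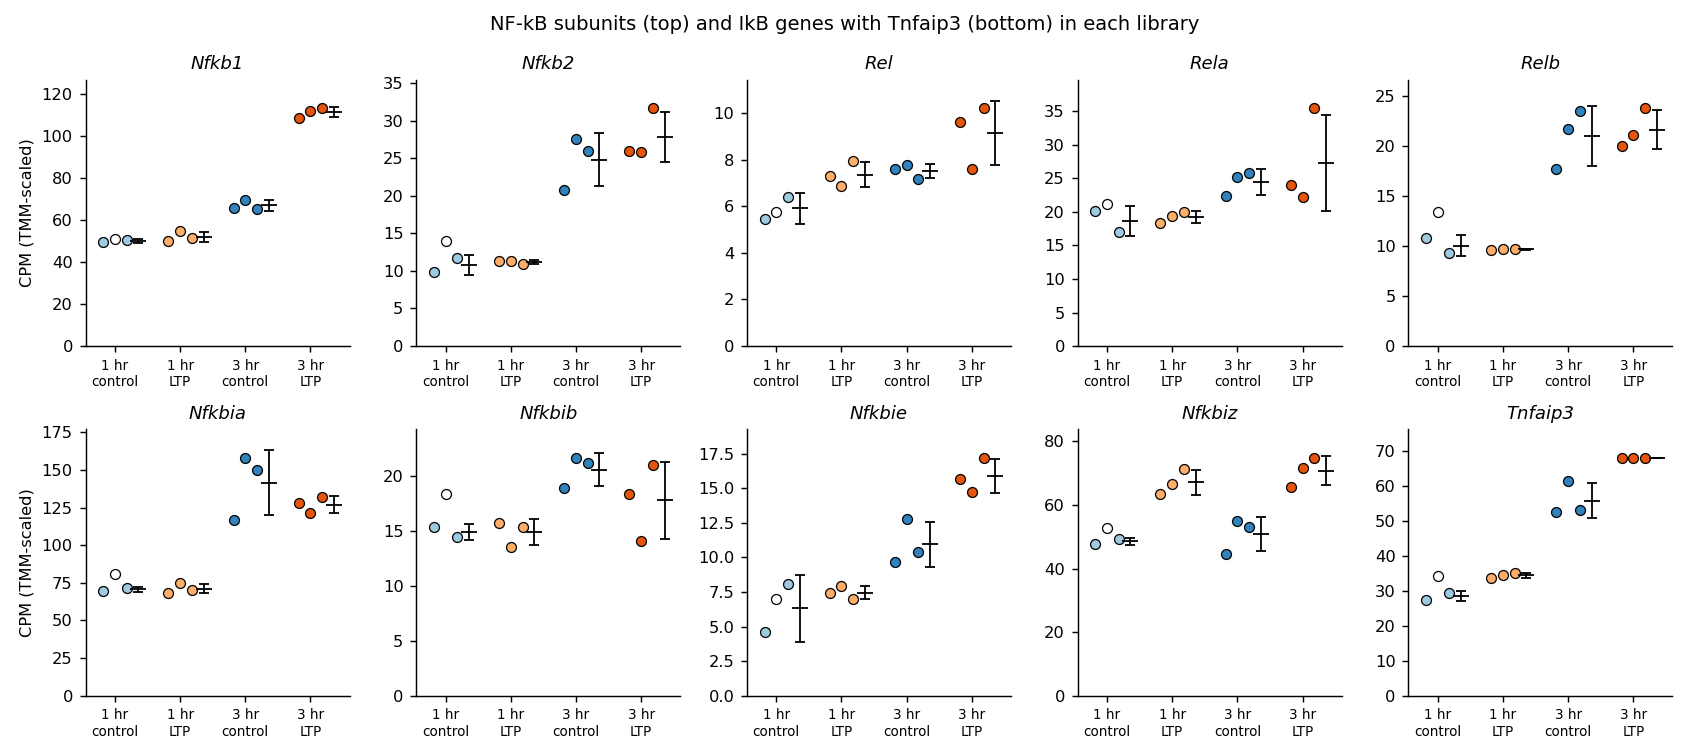
CPM (TMM-scaled counts, linear axis from 0) of the 10 genes in each of 12 libraries, 3 per group in order of replicate number. The open point is 1 hr control replicate 2, not fitted, and the bar beside each group is its mean ± SD over the fitted libraries. Nfkb1 stands at 108 to 113 CPM in the 3 hr LTP libraries against 49.3 to 69.6 in the others, Nfkb2, Relb and Nfkbia separate by time, and Nfkbiz separates by LTP at both times.

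**Figure D2:**
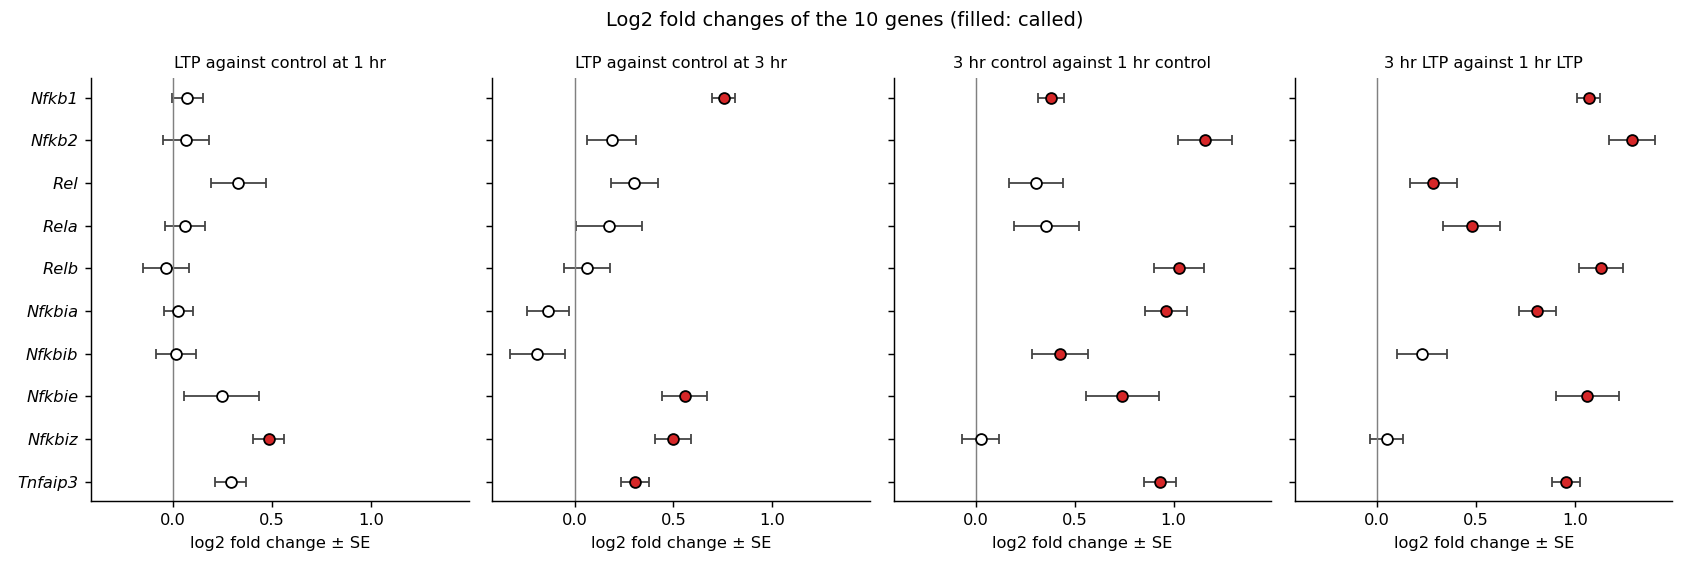
Log2 fold change ± SE of the 10 genes in 4 comparisons, 1 panel each, on a shared axis. Filled points passed the adjusted p and fold thresholds in that comparison. Nfkbiz is filled in both LTP panels and lies near 0 in both time panels, and Nfkb2, Relb and Nfkbia show the opposite arrangement.

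Levels were compared between genes per kb of annotated exon. Nfkbia, the IkB that gives the fastest feedback, had the highest level in each of the 4 groups, with 43.9 ± 1.07 CPM per kb in 1 hr controls (SD, n = 2) and 87.9 ± 13.5 in 3 hr controls (SD, n = 3). Nfkbiz followed in each group at 9.67 to 14.1 CPM per kb of exon. Per kb of the longest transcript, Nfkb1 took that place in 1 hr controls, 3 hr controls and 3 hr LTP. Per kb of the longest coding sequence, Tnfaip3 took it in 3 hr controls and Nfkb1 in 3 hr LTP. Rel, a subunit best known from lymphoid cells, had the lowest level, from 0.792 ± 0.0903 CPM per kb in 1 hr controls (n = 2) to 1.23 ± 0.182 in 3 hr LTP (n = 3). The study's text limits its expression analysis to reads in coding sequence, but the count tables also list non-coding genes, and which parts of a gene these tables count is not given in the sources used here. With the length of the longest transcript or of the longest coding sequence, Nfkbia remained highest in all groups, and Rel lowest except in 1 hr LTP per coding length, where it was at 4.18 against 4.15 for Nfkb2 with overlapping libraries. The place of Nfkb1 depended on the length used. It was rank 5 in 1 hr controls and rank 4 in 3 hr LTP per kb of exon, and rank 2 in both per kb of its longest transcript, because its annotated exons cover 12061 bases and its longest transcript 4149. Neighbours whose libraries overlapped in 1 hr controls per kb of exon were Relb with Nfkb2 and Nfkb2 with Nfkbie. In 3 hr controls they were Nfkbiz with Nfkbib, Rela with Tnfaip3, Nfkb1 with Nfkb2 and Nfkb2 with Relb. In 1 hr LTP they were Nfkbib with Rela, Relb with Nfkbie and Nfkbie with Nfkb2, and in 3 hr LTP each neighbouring pair from Nfkb1 through Rela, Nfkbib, Nfkb2 and Relb to Nfkbie overlapped.

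Nfkb1 (ENSMUSG00000028163, chr3:135584655-135691547, minus strand) encodes p105, the precursor of the p50 subunit. Its level was 49.3, 51.01 and 50.5 CPM in 1 hr controls 1, 2 and 3, and 49.9, 54.4 and 51.4 CPM in the 1 hr LTP libraries. At 3 hr it was 65.5, 69.6 and 65.3 CPM in controls and 108, 112 and 113 CPM in LTP libraries. The 1 hr groups overlapped, the 3 hr controls lay above every 1 hr library, and the 3 hr LTP libraries lay above all others. In control slices Nfkb1 was 1.30-fold higher at 3 hr than at 1 hr (log2 fold change 0.38 ± 0.066 SE). At 1 hr after LTP its log2 fold change was 0.072 ± 0.076 SE (adjusted p = 0.943). At 3 hr after LTP it was 1.69-fold higher than in control (log2 0.75 ± 0.056 SE), by 0.73, 0.68 and 0.79 on the log2 scale in animals 1, 2 and 3. From 1 hr to 3 hr in LTP slices it was 2.10-fold higher (log2 1.07 ± 0.059 SE). The LTP effect at 3 hr exceeded that at 1 hr by 0.69 ± 0.088 SE on the log2 scale, and by 0.64 without 1 hr control replicate 3. The choice of the set rested on Nfkb1 at 3 hr in LTP against control slices, so the values that use a 3 hr group are a description. For the same reason nothing is read from the count of members past the threshold for this difference (1 of 10, and 0 without 1 hr control replicate 3, beside 0.0269% of all genes called higher and 0.0323% lower).

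Nfkb2 (ENSMUSG00000025225, chr19:46304320-46312385, plus strand) encodes p100, the precursor of p52 in the non-canonical arm. Its level was 9.87, 14.0 and 11.7 CPM in 1 hr controls and 11.3, 11.4 and 10.96 CPM in 1 hr LTP libraries. At 3 hr it was 20.8, 27.6 and 25.9 CPM in controls and 26.0, 25.9 and 31.7 CPM in LTP libraries. Every 3 hr library lay above every 1 hr library, and LTP and control overlapped at both times. Nfkb2 rose 2.23-fold with time in controls (log2 1.16 ± 0.14 SE, adjusted p = 8.69e-05) and 2.44-fold in LTP slices (log2 1.29 ± 0.12 SE, adjusted p = 1.28e-05). With 1 hr control replicate 2 the rise in controls was 1.05 on the log2 scale. For LTP its log2 fold change was 0.065 ± 0.12 SE at 1 hr (adjusted p = 0.968) and 0.19 ± 0.12 SE at 3 hr. The value at 3 hr ran from 0.072 to 0.27 when each library was left out in turn. Its exons share 18.1% of their bases with genes on the opposite strand (Psd and AC114539.1), and whether strand was used in counting is not stated.

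Relb (ENSMUSG00000002983, chr7:19606217-19629438, minus strand), the usual partner of p52, followed the same course. Its level was 10.8, 13.4 and 9.29 CPM in 1 hr controls and 9.66, 9.73 and 9.69 CPM in 1 hr LTP libraries. At 3 hr it was 17.7, 21.7 and 23.6 CPM in controls and 20.1, 21.1 and 23.8 CPM in LTP libraries. The time points did not overlap, and LTP and control did. Relb rose 2.04-fold in controls (log2 1.03 ± 0.13 SE, adjusted p = 0.000129) and 2.19-fold in LTP slices (log2 1.13 ± 0.11 SE, adjusted p = 2.16e-05). Its log2 fold change for LTP was -0.035 ± 0.12 SE at 1 hr (adjusted p = 0.991) and 0.064 ± 0.12 SE at 3 hr. With 1 hr control replicate 2, the highest of the 1 hr libraries, the value for LTP at 1 hr was -0.19 (adjusted p = 0.730) and the rise in controls 0.90 on the log2 scale.

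Rela (ENSMUSG00000024927, chr19:5637483-5648130, plus strand) encodes p65, the main activating subunit, and moved less. Its level was 20.2, 21.2 and 17.0 CPM in 1 hr controls and 22.3, 25.3 and 25.8 CPM in 3 hr controls. It was 18.3, 19.3 and 20.02 CPM in 1 hr LTP libraries and 24.0, 22.3 and 35.5 CPM in 3 hr LTP libraries, where replicate 3 stood apart. The control time points did not overlap, yet the log2 difference of 0.36 ± 0.16 SE missed the threshold (adjusted p = 0.116), as it did with 1 hr control replicate 2 included (0.32, adjusted p = 0.110). It passed with DESeq2 (adjusted p = 0.0686), with the size factors of DESeq2 in edgeR (0.0991) and without the filter on low counts (0.0163). It also passed without any one of the 3 hr LTP libraries, or without 3 hr control replicate 1, with log2 values from 0.38 to 0.44. In LTP slices Rela was higher at 3 hr by 0.48 ± 0.15 SE on the log2 scale (adjusted p = 0.0205), a call that rested on 3 hr LTP replicate 3, without which the difference was 0.24. For LTP its log2 fold change was 0.061 ± 0.10 SE at 1 hr (adjusted p = 0.965) and 0.18 ± 0.17 SE at 3 hr, where it was -0.074 without that library.

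Rel (ENSMUSG00000020275, chr11:23736847-23770970, minus strand) encodes c-Rel. Its level was 5.44, 5.78 and 6.39 CPM in 1 hr controls and 7.29, 6.88 and 7.94 CPM in 1 hr LTP libraries. The 3 hr levels were 7.62, 7.77 and 7.17 CPM in controls and 9.62, 7.62 and 10.2 CPM in LTP libraries. The 1 hr LTP libraries and the 3 hr controls all lay above the 1 hr controls, while the 3 hr groups overlapped. Neither difference passed the test. LTP at 1 hr gave a log2 fold change of 0.33 ± 0.14 SE (adjusted p = 0.683, higher in 3 of 3 animals) and time in controls 0.30 ± 0.14 SE (adjusted p = 0.108). The time difference in controls passed with 1 hr control replicate 2 included (log2 0.35, adjusted p = 0.0424) and under DESeq2 (0.0939), the size factors of DESeq2 (0.0877) and no filter on low counts (0.0948). It also passed without 1 hr LTP replicate 2 or 3, without 1 hr control replicate 3 or without any one of the 3 hr LTP libraries, with log2 values from 0.32 to 0.46. At 3 hr LTP libraries differed from control by 0.30 ± 0.12 SE on the log2 scale, a difference that was not called, except with 3 hr LTP replicate 2 left out (0.43). In LTP slices Rel rose by 0.28 ± 0.12 SE on the log2 scale (adjusted p = 0.0767) although its libraries overlapped, and the call was lost without 1 hr LTP replicate 1 or 2 or without 3 hr LTP replicate 1 or 3 (log2 values from 0.20 to 0.30).

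Nfkbia (ENSMUSG00000021025, chr12:55489410-55492647, minus strand) encodes IkB-alpha, the inhibitor resynthesised by NF-kB itself. Its level was 69.4, 80.7 and 71.8 CPM in 1 hr controls and 68.5, 74.6 and 70.5 CPM in 1 hr LTP libraries. Levels at 3 hr were 117, 158 and 149.8 CPM in controls and 128, 121 and 132 CPM in LTP libraries. All 3 hr libraries lay above all 1 hr libraries, and LTP overlapped control at both times. Nfkbia rose 1.95-fold in controls (log2 0.96 ± 0.11 SE, adjusted p = 7.06e-05) and 1.75-fold in LTP slices (log2 0.81 ± 0.093 SE, adjusted p = 5.19e-05). Its log2 fold change for LTP was 0.025 ± 0.073 SE at 1 hr (adjusted p = 0.987) and -0.14 ± 0.11 SE at 3 hr, when it was higher in LTP in 1 of 3 animals. Leaving out each library in turn, the value at 3 hr ran from -0.26 to -0.055.

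Nfkbib and Nfkbie encode IkB-beta and IkB-epsilon. Nfkbib (ENSMUSG00000030595, chr7:28758251-28767512, minus strand) was at 14.4 to 18.4 CPM in 1 hr controls and 18.9 to 21.7 CPM in 3 hr controls, and rose by 0.42 ± 0.14 SE on the log2 scale (adjusted p = 0.0352). Without 1 hr control replicate 3, which left a single control, the difference was about as large (0.416) but was not called (adjusted p = 0.152). Of its exons, 16.4% of the bases lie opposite Ccer2 and Sirt2. In LTP slices its libraries ran from 13.6 to 15.8 CPM at 1 hr and from 14.1 to 21.1 CPM at 3 hr and overlapped (log2 0.23 ± 0.13 SE, adjusted p = 0.172). That difference passed without 3 hr LTP replicate 2, at 0.38, and was 0.091 without 3 hr LTP replicate 3. With 1 hr control replicate 2 included the rise in controls was 0.35 (adjusted p = 0.0612). For LTP its log2 fold change was 0.014 ± 0.10 SE at 1 hr (adjusted p = 0.997) and -0.19 ± 0.14 SE at 3 hr. The value at 3 hr came mostly from animal 2 (log2 ratios of -0.042, -0.62 and -0.013 in animals 1, 2 and 3), and leaving out 3 hr LTP replicate 2 gave -0.038, leaving out replicate 3 of that group -0.34.

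Nfkbie (ENSMUSG00000023947, chr17:45555703-45563169, plus strand) was at 4.61, 7.002 and 8.04 CPM in 1 hr controls and 7.41, 7.92 and 7.02 CPM in 1 hr LTP libraries. After 3 hr the levels were 9.66, 12.8 and 10.4 CPM in controls and 15.7, 14.8 and 17.2 CPM in LTP libraries. The 1 hr groups overlapped (log2 0.24 ± 0.19 SE, adjusted p = 0.920), and at 3 hr LTP and control were separate. Nfkbie rose 1.67-fold with time in controls (log2 0.74 ± 0.19 SE, adjusted p = 0.00871) and 2.09-fold in LTP slices (log2 1.06 ± 0.16 SE, adjusted p = 0.000305). The size in controls rested on the 1 hr controls, which lay apart, and was 0.44 on the log2 scale with 1 hr control replicate 1 left out and 1.24 with replicate 3 left out, each with a single 1 hr control in the fit. At 3 hr LTP libraries were 1.47-fold higher than control (log2 0.56 ± 0.11 SE), by 0.69, 0.21 and 0.72 on the log2 scale in animals 1, 2 and 3. The call at 3 hr was lost without 3 hr LTP replicate 1, 3 hr control replicate 1 or 3 hr control replicate 3 (log2 values of 0.57, 0.48 and 0.53).

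Tnfaip3 (ENSMUSG00000019850, chr10:19000910-19015657, minus strand) encodes A20, a ubiquitin-editing enzyme that shuts off signalling upstream of the IkB kinases. Its level was 27.5, 34.2 and 29.5 CPM in 1 hr controls and 33.8, 34.4 and 35.2 CPM in 1 hr LTP libraries. The 3 hr libraries held 52.7, 61.6 and 53.2 CPM in controls and 68.00, 68.1 and 68.02 CPM in LTP libraries. Tnfaip3 rose 1.91-fold in controls (log2 0.93 ± 0.080 SE, adjusted p = 2.01e-05) and 1.94-fold in LTP slices (log2 0.95 ± 0.070 SE, adjusted p = 3.11e-06). LTP at 1 hr gave 0.29 ± 0.080 SE on the log2 scale (adjusted p = 0.218), and with 1 hr control replicate 2 included the groups overlapped and the value was 0.20. At 3 hr LTP libraries lay above all controls (1.24-fold, log2 0.31 ± 0.072 SE, by 0.37, 0.14 and 0.35 in the 3 animals), a call lost without 3 hr LTP replicate 1, 3 hr control replicate 1 or 3 hr control replicate 3, where the log2 values were 0.308, 0.266 and 0.281.

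Nfkbiz (ENSMUSG00000035356, chr16:55811375-55838899, minus strand) encodes IkB-zeta, a nuclear relative that acts as a cofactor of p50 rather than as a cytoplasmic inhibitor. Its level was 47.6, 52.7 and 49.4 CPM in 1 hr controls and 63.5, 66.7 and 71.3 CPM in 1 hr LTP libraries. By 3 hr these were 44.7, 54.8 and 52.9 CPM in controls and 65.7, 71.6 and 74.8 CPM in LTP libraries. At each time point all LTP libraries lay above all controls, while the time points overlapped within each treatment. At 1 hr LTP raised Nfkbiz 1.40-fold (log2 0.48 ± 0.078 SE, adjusted p = 0.00599, higher in 3 of 3 animals). With 1 hr control replicate 2 included the value was 0.44 (adjusted p = 0.0106), and with that library and the animal as a block 0.44 (adjusted p = 0.0661). Without 1 hr control replicate 1, which left a single control, it was 0.45 and missed the threshold (adjusted p = 0.178). At 3 hr it was 1.41-fold higher in LTP slices (log2 0.50 ± 0.091 SE). From 1 hr to 3 hr its log2 difference was 0.026 ± 0.093 SE in controls (adjusted p = 0.861) and 0.047 ± 0.083 SE in LTP slices (adjusted p = 0.686). The difference between its LTP effects at 3 hr and 1 hr was 0.022 ± 0.12 SE.

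Ratios of counts within a library do not depend on how libraries are scaled. Nfkb1 made up 52.4 ± 1.15% of the counts of the 5 subunits in 1 hr controls (SD, n = 2), 52.2 ± 1.14% in 1 hr LTP, 46.3 ± 2.39% in 3 hr controls and 56.5 ± 3.37% in 3 hr LTP (SD, n = 3 each). The 3 hr LTP libraries (52.8 to 59.2%) lay above the 3 hr controls (44.2 to 48.9%). Nfkbia counts per Nfkb1 count were 1.42 in 1 hr controls, 1.37 in 1 hr LTP, 2.12 in 3 hr controls and 1.14 in 3 hr LTP. Control libraries thus held more Nfkbia per Nfkb1 at 3 hr (1.79 to 2.29) than at 1 hr (1.41 to 1.58 over all 3 libraries), and LTP libraries less (1.09 to 1.18 against 1.37). Nfkbiz counts per Nfkbia count were higher in LTP than in control at each time and lower at 3 hr than at 1 hr, at 0.687 in 1 hr controls, 0.944 in 1 hr LTP, 0.361 in 3 hr controls and 0.557 in 3 hr LTP. The ratios with Nfkb1 at 3 hr, in LTP and in control, include the values that chose the set and are given without a test.

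**Figure D3:**
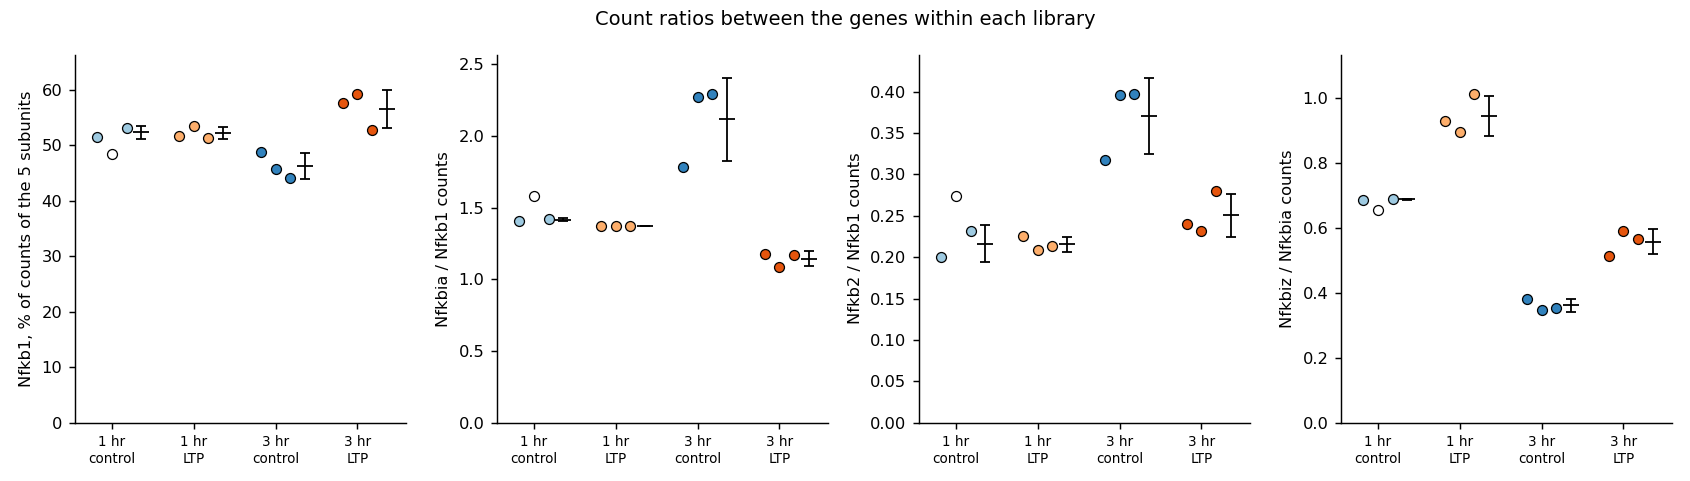
Ratios of raw counts between the genes in each library (linear axes from 0), by group, with the mean ± SD of the fitted libraries beside them and 1 hr control replicate 2 as an open point. Nfkbia per Nfkb1 is 1.79 to 2.29 in 3 hr controls and 1.09 to 1.18 in 3 hr LTP, and Nfkbiz per Nfkbia is higher in LTP than in control at each time.

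Other genes of the pathway were described from lists of 86 genes in all, of which 81 were tested across time and 80 for LTP. The lists were chosen with earlier results of these data known, so their counts are a description. From 1 hr to 3 hr in controls, 37 rose and 5 fell, where 16.1% of all genes were called higher and 16.8% lower. Of 16 ligands and receptors, 8 rose and 0 fell, among them the cytokine Il1b (log2 2.14 ± 0.28 SE, adjusted p = 0.000189) and the receptors Tnfrsf12a (1.19 ± 0.14), Tnfrsf1b (0.91 ± 0.14) and Tnfrsf1a (0.84 ± 0.14). Tnf itself gave a log2 difference of 0.13 ± 0.23 SE (adjusted p = 0.703) and was named after its value was seen. Of 26 adaptors and kinases, 8 rose and 2 fell, led by Myd88, the adaptor of Toll-like and interleukin-1 receptors (0.76 ± 0.11), the ubiquitin ligase Birc3 (0.91 ± 0.13), the kinase Ikbke (1.01 ± 0.16) and Traf2 (0.65 ± 0.11). Of 16 further IkB-like and restraining genes, 5 rose and 3 fell, the latter a share near that of all genes. The deubiquitinase Otud7b rose (0.70 ± 0.080), whereas Tax1bp1, a partner of A20 (-0.47 ± 0.078), Pias1 (-0.31 ± 0.068) and Nkiras1 (-0.29 ± 0.075) fell. Of 23 textbook target genes, 16 rose and 0 fell, with a median of 0.98, among them the chemokines Cxcl2 (1.74 ± 0.12), Ccl2 (1.87 ± 0.20) and Ccl4 (1.58 ± 0.17) and the stress gene Gadd45b (1.07 ± 0.10). The adjusted p of the called genes named here ran from 7.97e-06 for Cxcl2 to 0.00975 for Nkiras1.

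For LTP at 1 hr the same lists gave 0 calls among 15 ligands and receptors, 26 adaptors and kinases and 16 restraining genes (edgeR, with 1, 0 and 0 genes at an unadjusted p under 0.05). Of 23 targets, 6 were called higher and 0 lower, where 0.778% of all genes were called higher. Those with the smallest p were Junb, an AP-1 subunit (log2 1.72 ± 0.11 SE, adjusted p = 4.54e-07), Ptgs2, which encodes cyclooxygenase-2 (1.03 ± 0.090, adjusted p = 1.29e-05), the chemokine Cxcl10 (1.33 ± 0.19, adjusted p = 0.00202) and Gadd45b (0.52 ± 0.078, adjusted p = 0.00356). These genes also have activators other than NF-kB, and Junb and Ptgs2 are known as activity-induced genes of neurons. The study names Junb and Ptgs2 among its top genes of LTP at 1 hr, and Il6 among those at 3 hr. Since the list was chosen with earlier results of these data known, its counts for LTP are a description. At 3 hr after LTP, 5.07% of all genes were called higher and 1.53% lower. Of the 23 targets, 5 were higher and 0 lower, led by Il6 (1.31 ± 0.13, adjusted p = 0.0022), Ptgs2 (0.64 ± 0.070), Junb (0.80 ± 0.098) and Cxcl1 (0.85 ± 0.11). Of 26 adaptors and kinases, Chuk, the kinase IKK-alpha (0.32 ± 0.063), Birc2 (0.49 ± 0.10) and Map3k14, the kinase NIK of the non-canonical arm (0.36 ± 0.099), were higher and Tab1 was lower (-0.31 ± 0.074). Of 15 ligands and receptors, 1 was called higher and 2 lower. The cytokine Il1b was higher (0.93 ± 0.22) and the receptors Tnfrsf1a (-0.43 ± 0.089) and Ltbr (-0.43 ± 0.096) were lower. The restraining genes gave 0 calls (1 at an unadjusted p under 0.05).

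**Figure D4:**
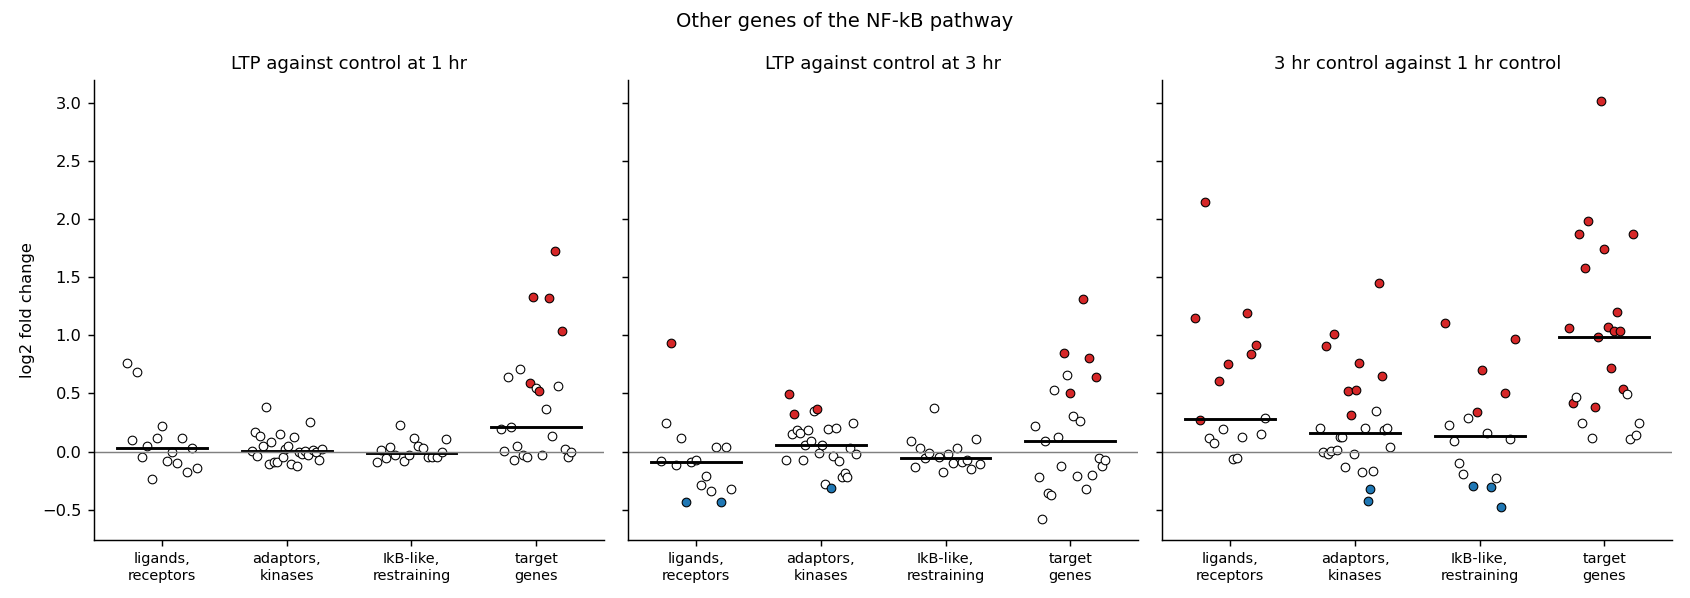
Log2 fold change of each tested gene of 4 pathway lists in 3 comparisons (1 point per gene, line at the list's median, red called higher, blue called lower, open not called). In controls from 1 hr to 3 hr the targets have a median of 0.98 and 16 of 23 are called, and at 1 hr after LTP 6 of 23 targets are called.

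Markers of cell types moved with time as well. Of 8 microglia markers, 6 fell between 1 hr and 3 hr in controls, where 16.8% of all genes were called lower and 16.1% higher, and their summed level was 290 to 310.2 CPM in 1 hr controls and 211 to 242 CPM in 3 hr controls. In LTP slices it was 282 to 309.8 CPM at 1 hr and 192 to 223 CPM at 3 hr, again with 6 of 8 lower, where 17.3% of all genes were called lower and 18.6% higher. Of 6 endothelial markers, 4 fell and 0 rose in controls, and 2 fell and 2 rose in LTP slices. Of 5 mural markers, 3 fell and 0 rose in controls, and 3 fell and 1 rose in LTP slices. Of 5 oligodendrocyte markers, 3 rose and 0 fell in each treatment. Some neuronal and astrocyte markers were called as well. The excitatory neuron marker Neurod6 fell in controls (log2 -1.10 ± 0.12 SE, adjusted p = 6.9e-05) and in LTP slices (-0.91 ± 0.11), and the interneuron marker Gad2 fell in both (-0.41 ± 0.089 and -0.44 ± 0.080). The astrocyte marker Slc1a3 fell in controls (-0.29 ± 0.087) and in LTP slices (-0.27 ± 0.078). The interneuron marker Slc32a1 (0.55 ± 0.14) and the astrocyte marker Sox9 (0.72 ± 0.23) rose in controls. Over the lists in controls, 0 of 5 excitatory neuron markers rose and 1 fell, 1 of 5 interneuron markers rose and 1 fell, 1 of 6 astrocyte markers rose and 1 fell, and 0 of 4 dentate granule markers rose and 1 fell. In LTP slices the counts were 2 higher and 1 lower, 0 and 2, 0 and 1, and 0 and 0. Markers of blood myeloid cells did not exceed a sum of 0.242 CPM in any library, and 1 of the 4 was at 0 in all 1 hr LTP libraries. For LTP against control, 0 of the 8 microglia markers were called at either time (0 at an unadjusted p under 0.05). Of the other lists 1 of 5 mural markers was called lower at 1 hr and 1 of 5 excitatory neuron markers higher at 3 hr. An unadjusted p under 0.05 at 1 hr was reached by 3 of 6 endothelial, 2 of 5 mural, 3 of 5 oligodendrocyte, 2 of 5 interneuron and 1 of 6 astrocyte markers. At that time all endothelial and mural values were below 0 and all oligodendrocyte values above 0. At 3 hr it was reached by 2 interneuron markers, 1 excitatory neuron, 1 astrocyte and 1 endothelial marker. The part of these shifts in the members' levels was not tested.

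Across the 11 fitted libraries, the genes whose log2 CPM followed Nfkb1 most closely among 14191 genes were Mir453 (Pearson r = 0.979), Hist1h4a (0.976), Atp11a (0.973), Ccrl2 (0.972) and Gm16758 (0.969). The points share time, treatment and library scaling, so these values are a description. Among the members, Nfkbie (0.913) and Tnfaip3 (0.908) stood nearest to Nfkb1, and Nfkbiz (0.485) and Nfkbib (0.377) farthest. With all 12 libraries Gm16758 dropped to 0.832 and the other 4 remained the 4 closest genes.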

How the data were processed

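The deposited tables, 1 per time point, hold raw counts per gene for 12 libraries. The authors depleted ribosomal RNA (stranded kit), aligned paired reads with STAR to GRCm38 (mm10) and counted with Bioconductor packages. Whether counting used strand, and which gene parts were counted, is not stated. The study's text limits its expression analysis to coding regions. Of 41091 Ensembl IDs, 40217 matched GENCODE M21 and 874 did not. All columns belonged to the 12 samples.

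Tests were run in edgeR 4.0.16 (R 4.3.3) by quasi-likelihood F, after filterByExpr and TMM, with Benjamini-Hochberg adjustment over all genes. Calls needed adjusted p < 0.1 and fold > 1.2, as in the study, the interaction without a fold minimum. LTP was tested within a time point (5 libraries at 1 hr, 6 at 3 hr), time and the interaction in 1 model of 4 groups (11 libraries). SE is the log2 fold change divided by the root of F. CPM were TMM-scaled over 12 libraries, with 0.1 CPM added for ratios within animals. Replicates are separate animals and differed beyond counting error (chi-square per degree of freedom 9.49 to 85.6). The fits were tested on simulated data.

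The members and lists were chosen with earlier results of these data known. Named were all members, in each list at most the 4 called genes with the smallest p, and the 5 genes most correlated with Nfkb1 at a mean of at least 1 CPM. Replicate numbers name the same animal for LTP and control within a time point. The correlation of paired deviations was -0.016, -0.15 and 0.071 at 1 hr and 0.036, -0.027 and 0.21 at 3 hr. Alternatives were DESeq2 1.42.0, its size factors in edgeR, no filter, all libraries, an animal block, 1 model of 4 groups, other gene lengths and leaving out each library.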

Additional observations from a re-analysis of the deposited data

Results flagged for a closer look

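The LTP effect on Nfkb1 differed between the time points, by 0.69 on the log2 scale. The log2 fold change for LTP was 0.072 at 1 hr and 0.75 at 3 hr. The LTP rise of Nfkb1 at 3 hr was among the reasons for choosing the set, so a larger effect at 3 hr was part of the choice. The value is a description and no test of it. Without 1 hr control replicate 3 the difference was 0.64. Each of the 3 animals at 3 hr had a higher level in LTP, by 0.68 to 0.79 on the log2 scale.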

How the results depend on the processing

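Under DESeq2, its size factors in edgeR, no filter on low counts, all libraries, 1 model of the 4 groups and the animal block, the number of members called stayed within 1.5 times the main count in every comparison they were run for (8 to 9 in the controls over time against 7). Leaving out each library gave 0 to 1 members called higher for LTP at 1 hr (0 without 1 hr control replicate 1), 2 to 5 at 3 hr (2 without 3 hr LTP replicate 1, 3 hr control replicate 1 or 3 hr control replicate 3) and 0 to 1 for the difference of LTP effects (0 without 1 hr control replicate 3). With the replicate block on the animal, 1 member was called at 1 hr and 4 at 3 hr, as without it, and the pairing changed no member's call. The fits with this block at 1 hr and for the difference of LTP effects also included 1 hr control replicate 2. A block on the animal within a time point leaves nothing to compare across time, so it was not run for the time differences. A block on the animal number over both times, chosen after seeing the data, gave 8 members called in controls and 8 in LTP slices, Nfkb1 included in each.

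Some small values at 1 hr after LTP, none of them called, changed sign. With all libraries Nfkb2 was -0.072, Rela -0.0043, Nfkbia -0.040 and Nfkbib -0.094. With all libraries and the replicate block together, Nfkb2 was -0.057, Nfkbia -0.038 and Nfkbib -0.089. Leaving out each library gave, at 1 hr, -0.054 to 0.19 for Nfkb2, -0.058 to 0.19 for Rela, -0.14 to 0.071 for Relb, -0.015 to 0.055 for Nfkbia, -0.033 to 0.072 for Nfkbib and -0.10 to 0.70 for Nfkbie. At 3 hr it gave -0.074 to 0.31 for Rela and -0.046 to 0.16 for Relb, and in controls over time -0.0062 to 0.13 for Nfkbiz. For the difference of LTP effects it gave -0.028 to 0.22 for Nfkb2, -0.17 to 0.080 for Rel, -0.14 to 0.23 for Rela, -0.032 to 0.19 for Relb, -0.17 to 0.63 for Nfkbie, -0.083 to 0.074 for Nfkbiz and -0.057 to 0.077 for Tnfaip3. The cause was not tested.

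Over all genes, calls for LTP at 1 hr went from 140 to 347 without the filter and to 92 to 344 leaving out an LTP library. Those at 3 hr went from 1155 to 228 to 2170 leaving out a library. Calls for the difference of effects went from 11 to 80 with DESeq2, 102 without the filter and 10 with all libraries. They went to 7 with all libraries and the replicate block together, and to 3 to 67 leaving out any library but a 1 hr control. Replicates differed beyond counting error. The calls rest on 3 animals a group, with 2 fitted controls at 1 hr, and fits at other depths were not run.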
